A study of Mus musculus with 14 samples.

Results

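Chromatin remodellers and histone modifiers, a set of 51 genes, were compared between wild-type and Morrbid-/- CD8 T cells. Members were taken by gene symbol, from a list drawn up with earlier results of these data known, and were sorted by complex or activity. All 51 were listed in both tables of normalized counts, among 14732 rows for cells stimulated without IFN-beta and 12843 rows for cells stimulated with it. The series profiled RNA from naive CD8 T cells, sorted from C57BL/6 mouse spleen as CD62L-high and CD44-low. Wild-type cells and cells labelled Morrbid-/-, for the long noncoding RNA Morrbid, were stimulated for 6 h through the T cell receptor and its costimulator, with anti-CD3 fixed to the plate and anti-CD28 in solution, each at 1 µg/mL. That stimulation alone had 3 libraries per genotype, and the same stimulation with 20 ng/mL recombinant IFN-beta had 4 per genotype. No unstimulated cells were analysed here, so every group shares receptor stimulation. The labels do not say whether replicates came from separate animals, so p-values measure the spread between these libraries, which may be technical. They give neither age nor sex, and they do not state which part of the Morrbid locus is deleted.

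Packaging of DNA into nucleosomes limits access of the transcription machinery, and the proteins encoded by these genes move, mark or read nucleosomes. CHD, BAF and ISWI remodellers use ATP to slide or evict nucleosomes, and the NuRD complex joins a CHD ATPase to histone deacetylases. KMT2 enzymes methylate histone H3 at lysine 4, SETD2 methylates lysine 36, Polycomb complexes mark repressed genes, and demethylases remove such marks. DNA methyltransferases and TET enzymes write and oxidize methylcytosine, and CBP and p300 acetylate histones at enhancers. In T cells, receptor and interferon signalling lead to remodelling of chromatin at cytokine and effector genes.

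CG dinucleotides are the substrate of DNA methyltransferases and the site bound by the CXXC domains of KDM2B and KMT2A. Windows of 250 bases immediately upstream of an annotated start are therefore shown for the 3 members, Chd4, Arid1a and Kdm2b, that were called higher under every processing setting and that have an annotated start whose window holds no exon base. Each is written 5′ to 3′ on the strand of its gene, taken from the RefSeq promoter table on GRCm38.p6, with every CG in capitals.
Chd4, chr6:125095731-125095980, plus strand: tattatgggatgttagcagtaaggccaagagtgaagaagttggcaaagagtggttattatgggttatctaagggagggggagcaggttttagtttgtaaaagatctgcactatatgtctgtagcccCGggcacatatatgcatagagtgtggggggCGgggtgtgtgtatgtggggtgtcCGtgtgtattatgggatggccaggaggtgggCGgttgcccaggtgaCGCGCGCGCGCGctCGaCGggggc
Arid1a, chr4:133756770-133757019, minus strand: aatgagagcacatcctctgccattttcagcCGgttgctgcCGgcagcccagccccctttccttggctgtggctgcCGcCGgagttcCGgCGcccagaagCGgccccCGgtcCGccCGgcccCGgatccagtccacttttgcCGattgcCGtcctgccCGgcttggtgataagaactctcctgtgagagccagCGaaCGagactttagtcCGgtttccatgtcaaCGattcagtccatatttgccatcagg
Kdm2b, chr5:122900368-122900617, minus strand: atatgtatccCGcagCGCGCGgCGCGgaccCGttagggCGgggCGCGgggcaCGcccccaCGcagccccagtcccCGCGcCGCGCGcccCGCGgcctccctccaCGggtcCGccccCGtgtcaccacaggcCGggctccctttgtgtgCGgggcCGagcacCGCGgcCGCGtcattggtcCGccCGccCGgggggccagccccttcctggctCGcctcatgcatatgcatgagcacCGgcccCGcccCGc
The Kdm2b window lies inside the gene, before an internal start. These windows held 12, 18 and 36 CG dinucleotides, respectively. Arid1a has another window without exon bases, at chr4:133753986-133754235, which held 33 and is not shown. Windows that hold exon bases are not shown either, and they had 23 for Chd4 and 12, 27 and 38 for Kdm2b. Across the 57 windows of the 38 members found in the table, the median was 23 (quartiles 14 and 31), against 6 (quartiles 2 and 16) over all 32851 windows of the genome. The ETS core, CCGGAA or its reverse complement TTCCGG, occurred in a window of 10 of the 38 members (26.3%) and of 13.6% of all 27025 genes. That core itself holds a CG, and members had 57 windows for 38 genes, against 32851 for 27025. The shares were not adjusted for CG content or for windows per gene. All windows cover 27025 genes, against 9964 tested with IFN-beta, and neither CG counts nor shares were adjusted for expression in these cells. The core of the interferon-stimulated response element, TTTC and another TTTC with any 2 bases between, on either strand, occurred in 1 of 38 members (2.63%) and in 3.46% of all genes. The kappa B core, GGG and TTTCC with any 2 bases between, on either strand, occurred in 0 of 38 members and in 1.65% of all genes. A match describes the letters in these windows and is not evidence of a bound factor.

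Library depth was 1747634 to 2963149 reads without IFN-beta and 5788070 to 7355337 with it. With IFN-beta, depth did not overlap between genotypes: wild-type libraries held 5788070 to 6918633 reads and those labelled Morrbid-/- held 7132515 to 7355337, so depth and genotype cannot be told apart there. Markers of CD8 T cells were present in every library, and those of B and NK cells summed to at most 28.4 and 4.88 normalized counts. Myeloid markers summed to 11.2 to 27.5 without IFN-beta, and with it to 16.5 to 29.2 in wild type and 25.7 to 39.5 in the libraries labelled Morrbid-/-, where Cd68 did not overlap (13.3 to 15.3 against 17.4 to 34.1). Of 3 plasmacytoid dendritic cell markers, Ccr9 passed without IFN-beta (90.3 to 159 in wild type against 51.7 to 76.7) and Bst2, which interferon induces, with it (366 to 510 normalized counts against 493 to 580). The remaining marker of that list, Siglech, ran from 1.79 to 5.12 without IFN-beta and was not listed with it. The part of these markers in the members' differences was not tested. Without IFN-beta, Morrbid itself was counted at 2, 4 and 2 reads in wild-type libraries and at 7, 4 and 7 reads in those labelled Morrbid-/-. The Morrbid count thus was no lower where the label says Morrbid-/-, and it did not check that label. With IFN-beta, Morrbid was not analysed here.

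With IFN-beta, 18 of the 51 members rose and 1 fell in the libraries labelled Morrbid-/-, at an adjusted p under 0.05 (limma on log2 of the normalized count plus 1, Benjamini-Hochberg over 9964 genes). Kdm2b, an H3K36 demethylase that recruits Polycomb, had the largest difference (0.84 on the log2 scale), followed by the NuRD ATPase gene Chd4 (0.62). Tet3, which encodes a methylcytosine dioxygenase, was the member that fell (-0.47). Over all genes tested, 10.1% were called, 5.25% higher and 4.84% lower, and the members' shares were 35.3% and 1.96%. With the minimum mean raised to 50, 7.04% of genes were higher and 6.6% lower, and 19 members rose under that filter. The members' median log2 difference, labelled Morrbid-/- minus wild type, was 0.19, against 0.00 over all genes. Groups did not overlap for 27 members, 26 of them higher, against 15.2% of all genes, 7.58% higher and 7.6% lower. Without the mean-variance trend 4 members rose, and 10 rose with the share of reads in mitochondrial 16S RNA as covariate (9.45 to 12.01% in wild type, 9.05 to 10.5% in the other genotype) or without replicate 2 labelled Morrbid-/-. Chd1, Chd2, Chd6, Gatad2b, Kdm3b, Kdm5b, Ncor1 and Ep300 were lost in each of these 3 settings, while Chd4, Kdm2b, Kmt2a, Arid1a and Tet3 passed in all. Bulk RNA cannot tell fewer cells with a transcript from less of it per cell.

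With IFN-beta, the shift of the set was present in each library labelled Morrbid-/-. Measured from the wild-type mean of each gene, the members' median deviation was 0.15, 0.17, 0.14 and 0.18 on the log2 scale in the 4 so labelled libraries given IFN-beta. In the 4 wild-type libraries it was -0.06, 0.03, 0.04 and -0.00, so no library of one genotype reached the range of the other. Wild-type libraries were their own reference here, which holds their values near 0, and the members were chosen with earlier results known. These medians therefore restate the gene differences from the same libraries and are no separate support for them. Without IFN-beta the 3 wild-type libraries gave -0.04, 0.01 and 0.03 and the libraries labelled Morrbid-/- gave -0.06, -0.05 and 0.05, and these ranges overlapped.

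**Figure D1:**
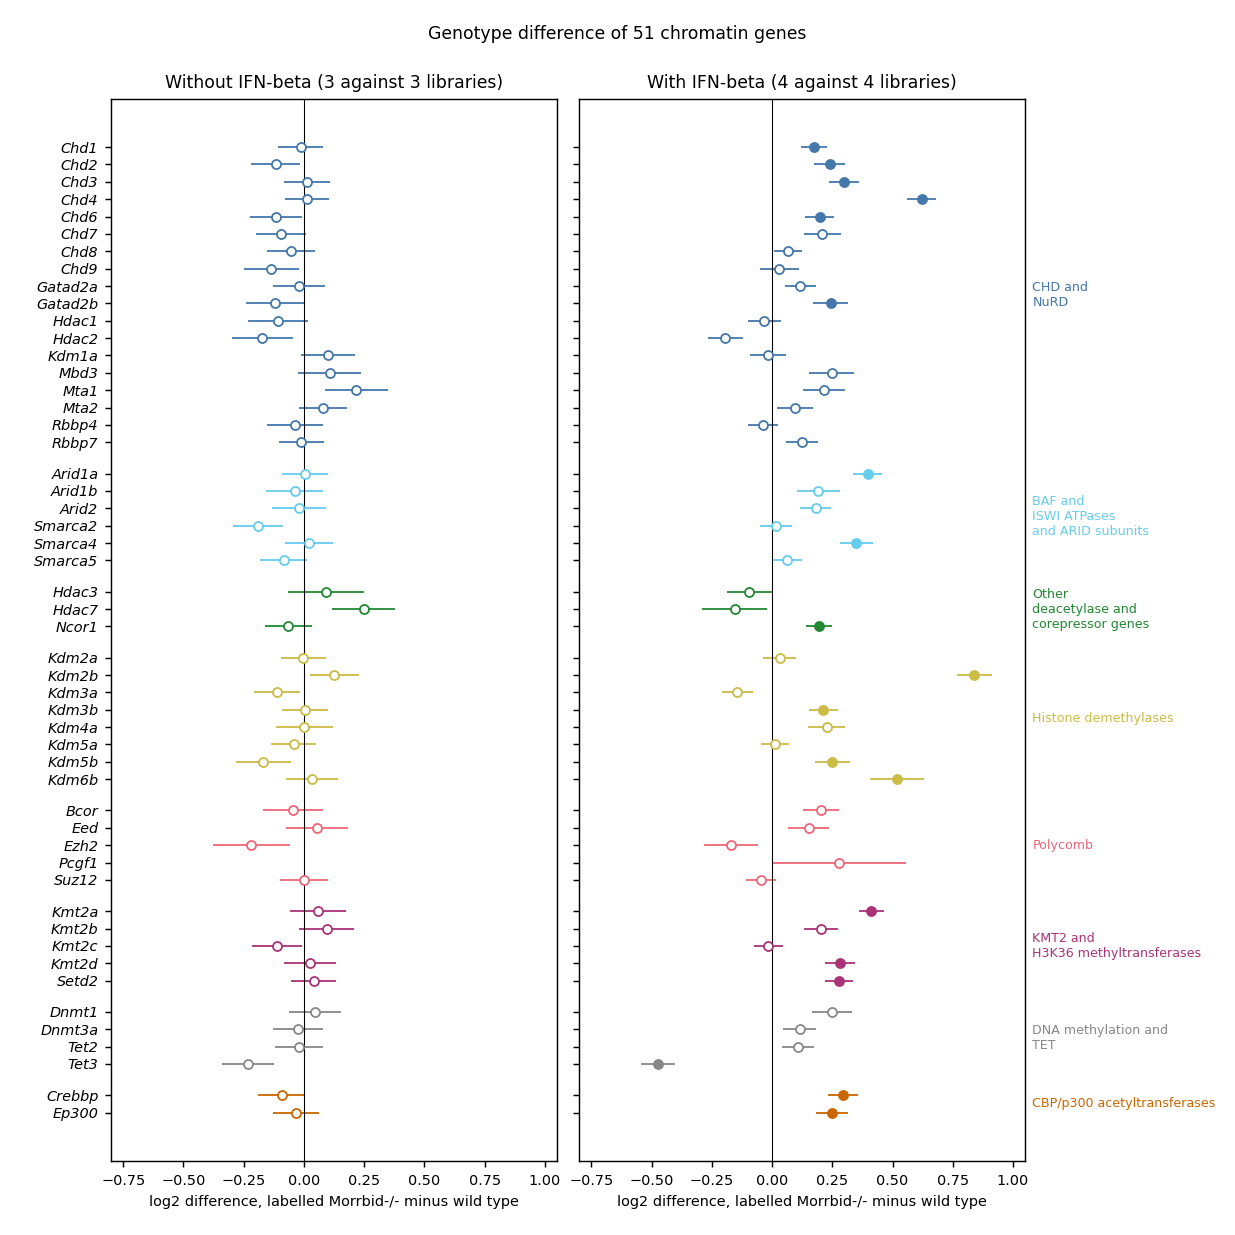
Genotype difference of each of the 51 genes, libraries labelled Morrbid-/- minus wild type on the log2 scale, without IFN-beta (left, 3 against 3 libraries) and with IFN-beta (right, 4 against 4); bars are standard errors, filled points passed an adjusted p of 0.05, and each gene is drawn once although 4 genes belong to 2 lists. The filled points, 18 to the right of 0 and Tet3 to the left, are all in the panel with IFN-beta.

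**Figure D2:**
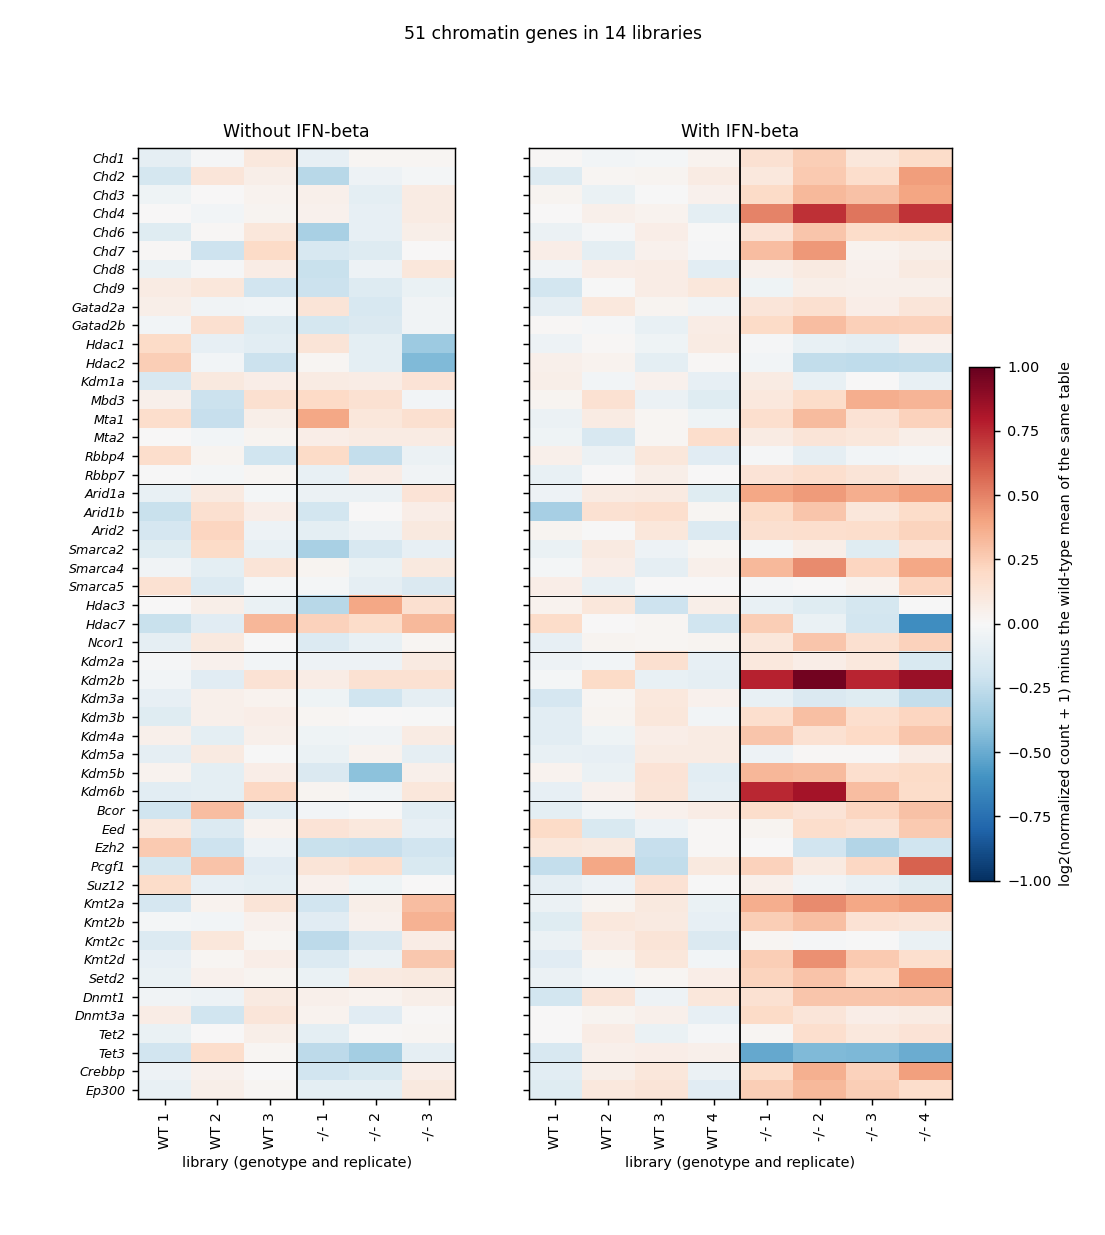
Log2 deviation of each gene in each library from the wild-type mean of its own table, genes in rows by complex and libraries in columns. Kdm2b and Chd4 are high in all 4 libraries labelled Morrbid-/- with IFN-beta and Tet3 is low in all 4.

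Of the 18 CHD and NuRD genes, 6 rose with IFN-beta, none fell and 12 did not pass, with a median log2 difference of 0.15. CHD ATPases accounted for 5 of the 6. Chd4 (chromosome 6, 125095980 to 125130591), the main ATPase of NuRD, had normalized counts of 2585, 2673, 2644 and 2405 in wild-type libraries and 3640, 4267, 3728 and 4248 in those labelled Morrbid-/-. The lowest of the latter lay well above the highest of the former. The means were 2577 ± 120 and 3971 ± 333 (SD, n = 4), 54.1% higher, a log2 difference of 0.62 (SE 0.06, 95% interval 0.49 to 0.75, adjusted p = 4.56e-07 by limma). Chd3, which encodes the other classical NuRD ATPase, measured 1213, 1135, 1188 and 1227 in wild type against 1356, 1487, 1458 and 1561, a log2 difference of 0.30 (SE 0.06, adjusted p = 0.00237). These groups were also separate.

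The remaining called members of this list differed by less. Chd2, a remodeller that deposits histone H3.3, gave 4318, 4776, 4803 and 4999 in the 4 wild-type libraries and 5069, 5669, 5321 and 6297 in the 4 labelled Morrbid-/- (log2 difference 0.24, SE 0.06, adjusted p = 0.0162). Of the 75-base stretches of Chd2 transcripts, 17.3% also occur in transcripts of another gene, mostly 1810026B05Rik, so its count is uncertain to that extent. Chd1, which binds H3K4 trimethylation, gave 2621, 2550, 2559 and 2657 against 2888, 3082, 2801 and 2952 (0.17, SE 0.05, adjusted p = 0.0385). Chd6, an ATPase outside NuRD, gave 1206, 1244, 1314 and 1252 against 1379, 1521, 1423 and 1432 (0.20, SE 0.06, adjusted p = 0.0337). Gatad2b, a NuRD scaffold subunit, gave 422, 415, 398 and 440 against 479, 519, 493 and 493 (0.24, SE 0.07, adjusted p = 0.034). Genotypes did not overlap for any of these 4 genes, although the gap for Chd2 was narrow.

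Other NuRD subunits did not pass with IFN-beta. The deacetylase genes Hdac1 and Hdac2 had log2 differences of -0.03 and -0.19 (adjusted p = 0.825 and 0.102 by limma), and the histone chaperone genes Rbbp4 and Rbbp7 had -0.04 and 0.13. Values were 0.21 for Mta1 and 0.10 for Mta2, scaffold genes of the complex. Mbd3, which encodes a methyl-CpG-binding-domain subunit, was at 0.25 (adjusted p = 0.0929), Gatad2a at 0.12, and Kdm1a, the H3K4 demethylase shared with CoREST, at -0.02. The remaining CHD genes Chd7, Chd8 and Chd9 were at 0.21, 0.07 and 0.03. At this threshold the called NuRD genes were the ATPase genes Chd3 and Chd4 and the scaffold Gatad2b. The uncalled Mta1 and Mbd3 had estimates close to that of Gatad2b, which was lost under 9 of 22 alternatives. Mta1 and Rbbp7 also did not overlap between genotypes. The Hdac1 estimate was smaller than its SE of 0.07. Transcripts of other genes share 29.3% of the 75-base stretches of Hdac1 and 15.4% of those of Rbbp4, so these counts are uncertain to that extent.

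Among the 6 BAF and ISWI genes, 2 rose with IFN-beta, 4 did not pass, and the median log2 difference was 0.19. Arid1a (chromosome 4, 133679008 to 133756769), the DNA-binding subunit of canonical BAF, had normalized counts of 1745, 1915, 1919 and 1656 under the wild-type label and 2360, 2422, 2327 and 2398 under the Morrbid-/- label. Those means were 1809 ± 130 and 2377 ± 42.2 (SD, n = 4), 31.4% higher, a log2 difference of 0.40 (SE 0.06, adjusted p = 7.92e-05 by limma). Smarca4 (chromosome 9, 21616106 to 21704230), the BAF ATPase BRG1, had 863, 914, 821 and 906 against 1097, 1214, 1017 and 1144, a log2 difference of 0.35 (SE 0.07, adjusted p = 0.00131). Neither gene overlapped between genotypes. The alternative ATPase gene Smarca2 was at 0.02 and the ISWI ATPase gene Smarca5 at 0.06, neither past the threshold. Transcripts of other genes share 22.2% of the 75-base stretches of Smarca5. Arid1b and Arid2, which mark alternative BAF assemblies, were at 0.19 and 0.18 (adjusted p = 0.188 and 0.0745).

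Among the 9 histone demethylase genes, 4 rose with IFN-beta and 5 did not pass, with a median log2 difference of 0.21. Kdm2b (chromosome 5, 122870664 to 122989270) had normalized counts of 663, 768, 639 and 634 in wild type, against 1149, 1315, 1141 and 1229 in libraries labelled Morrbid-/-. Every library labelled Morrbid-/- exceeded every wild-type library by a wide margin. The means were 676 ± 62.7 and 1209 ± 81.3 (SD, n = 4), 78.8% higher, a log2 difference of 0.84 (SE 0.07, 95% interval 0.69 to 0.99, adjusted p = 5.25e-08 by limma). Exons of other genes overlap 16.2% of the Kdm2b exon bases, 14.1% on the opposite strand, and the strand setting of the counting is not given in the sources used here. The antisense neighbour Rnf34 had 130 ± 9.26 and 142 ± 13.7 (log2 difference 0.12, adjusted p = 0.576). The antisense transcript A930024E05Rik had 125 ± 20.8 and 167 ± 16.3 (0.43, adjusted p = 0.0263). The same-strand neighbour Gm44574 was not listed for either stimulation. Of the 75-base stretches of Kdm2b transcripts, 11.4% also occur in transcripts of another gene, 4.96% in those of Rnf34. The part of these neighbours in the Kdm2b difference was not tested.

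Kdm6b (chromosome 11, 69398508 to 69420367), an H3K27 demethylase, varied more among libraries. Its normalized counts were 303, 331, 351 and 302 in the 4 wild-type libraries and 542, 573, 397 and 366 in the 4 labelled Morrbid-/-, a log2 difference of 0.52 (SE 0.11, adjusted p = 0.00377 by limma). Replicates 1 and 2 of the latter were high, and replicates 3 and 4 lay close to the highest wild-type library. Kdm5b, an H3K4 demethylase, had 641, 597, 689 and 583 against 787, 782, 702 and 713 (0.25, SE 0.07, adjusted p = 0.0283). The H3K9 demethylase gene Kdm3b had 1494, 1638, 1739 and 1585 against 1809, 1984, 1813 and 1871 (0.21, SE 0.06, adjusted p = 0.0254). Genotypes did not overlap for Kdm5b or Kdm3b, and 23.2% of the 75-base stretches of Kdm3b transcripts also occur in the antisense Gm26538. Its relative Kdm3a was at -0.14 (adjusted p = 0.17), Kdm2a, the paralog of Kdm2b, at 0.03, Kdm4a at 0.23 (adjusted p = 0.0648) and Kdm5a at 0.01.

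Of the 8 Polycomb genes, Kdm2b, which brings a variant Polycomb complex to CG-rich DNA, was the one that passed. Bcor and Pcgf1, partners of KDM2B in that complex, were at 0.20 (adjusted p = 0.0857 by limma) and 0.28 (adjusted p = 0.587). Pcgf1 was counted at 12.8 to 20.5 in wild type and at 16.5 to 23.7 in the other genotype. The core genes of the H3K27 methyltransferase complex were at -0.17 for Ezh2, 0.15 for Eed and -0.05 for Suz12. None of these 3 passed, and each overlapped between genotypes.

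Methyltransferase genes gave 3 called members of 5, all higher, with a median log2 difference of 0.28. Kmt2a (chromosome 9, 44803355 to 44881352), an H3K4 methyltransferase of the trithorax group, had normalized counts of 8326, 8835, 9255 and 8275 under the wild-type label and 11139, 12052, 11343 and 11590 under the Morrbid-/- label. The means were 8673 ± 463 and 11531 ± 393 (SD, n = 4), 33.0% higher, a log2 difference of 0.41 (SE 0.05, adjusted p = 1.4e-05 by limma). The 2 groups were far apart relative to their spread. Kmt2d, the enhancer H3K4 methyltransferase, had 4288, 4738, 5026 and 4542 against 5503, 6355, 5557 and 5216 (0.28, SE 0.06, adjusted p = 0.00444). Setd2, the enzyme that trimethylates H3K36, had 2641, 2704, 2796 and 2883 against 3215, 3354, 3159 and 3671 (0.28, SE 0.06, adjusted p = 0.00249). Neither overlapped between genotypes. Kmt2c, the relative of Kmt2d, was at -0.02, and Kmt2b at 0.20 (adjusted p = 0.0686).

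Both genes of the paralogous acetyltransferases CBP and p300 rose with IFN-beta. Crebbp (chromosome 16, 4081334 to 4213957) had normalized counts of 3119, 3495, 3642 and 3220 in wild type, against 3823, 4299, 3944 and 4464 in libraries labelled Morrbid-/- (log2 difference 0.29, SE 0.06, adjusted p = 0.00287 by limma). Ep300 had 1658, 1944, 1982 and 1673 against 2150, 2265, 2142 and 2045 (0.25, SE 0.07, adjusted p = 0.0145). Both genes were separate between genotypes, Ep300 by a narrow gap. Ncor1, a corepressor that carries HDAC3, had 3384, 3653, 3635 and 3645 against 3871, 4330, 3987 and 4192 (0.19, SE 0.05, adjusted p = 0.0235), also without overlap. Its deacetylase partner gene Hdac3 was at -0.09 and the class IIa deacetylase gene Hdac7 at -0.16, neither past the threshold. Hdac7 ran from 138.7 to 253.8 in the libraries labelled Morrbid-/- and from 185.5 to 241.9 in wild type.

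DNA methylation and TET genes held the member that fell. Tet3 (chromosome 6, 83362373 to 83457208) had normalized counts of 739, 852, 862 and 852 in the 4 wild-type libraries and 579, 609, 604 and 583 in the 4 labelled Morrbid-/-. All 4 of the latter were below the lowest wild-type library. The means were 826 ± 58.5 and 594 ± 14.8 (SD, n = 4), a log2 difference of -0.47 (SE 0.07, 95% interval -0.62 to -0.33, adjusted p = 6.63e-05 by limma). Tet2, which encodes a related dioxygenase, was at 0.11 (adjusted p = 0.336). The maintenance methyltransferase gene Dnmt1 was at 0.25 (adjusted p = 0.0555) and the de novo methyltransferase gene Dnmt3a at 0.11 (adjusted p = 0.316), both without overlap between genotypes but not past the threshold.

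**Figure D3:**
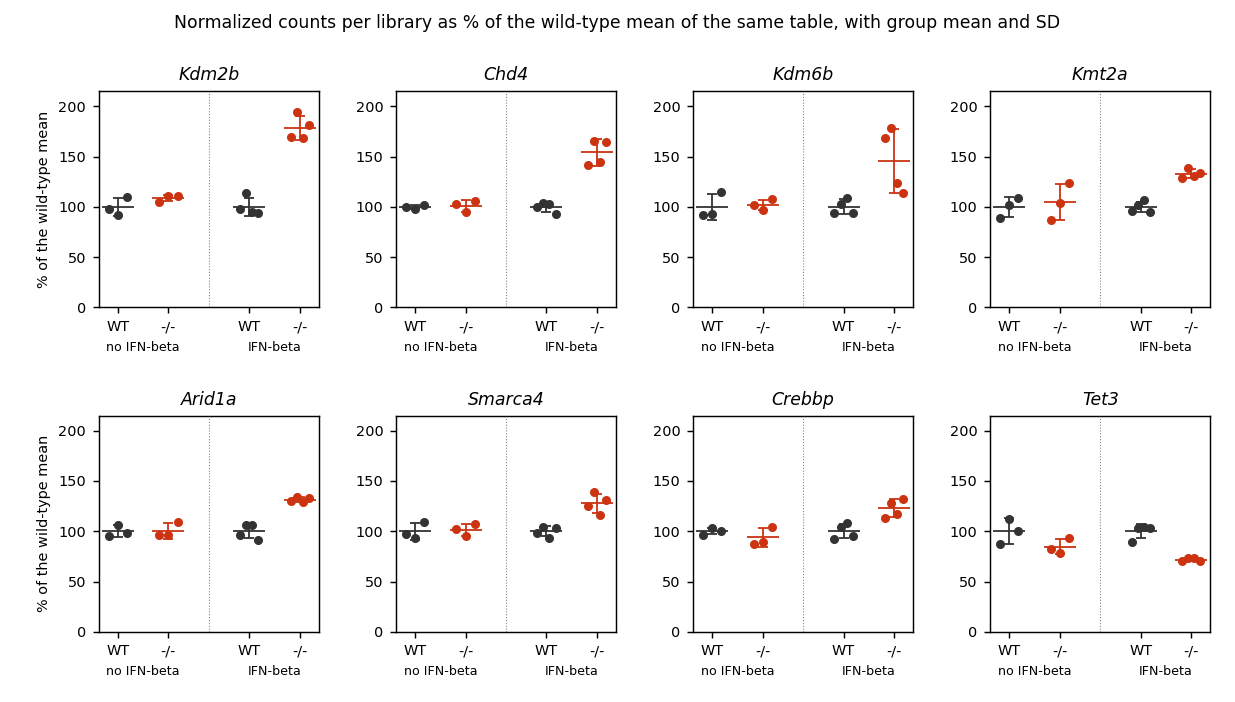
Normalized counts of 8 genes per library as a percentage of the wild-type mean of the same table, with the group mean (line) and SD (bar); WT is wild type and -/- the libraries labelled Morrbid-/-. With IFN-beta no gene overlaps between genotypes and Tet3 is the one that is lower; without IFN-beta every gene shown overlaps.

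Without IFN-beta, no member was called in either direction among the 50 tested, against 0.635% of all 9290 genes, 0.538% higher and 0.0969% lower (limma). Tet3 was the 1 member with an unadjusted p under 0.05, a level that 567 of the 9290 genes reached. The count tests edgeR and DESeq2 called 0 members as well. The members' median log2 difference was -0.02, 21 of 50 were above 0, and values ran from -0.23 to 0.25. Groups did not overlap for 1 member, the NuRD gene Mta2 (0.08), against 10.9% of all genes, 5.53% higher and 5.39% lower. Pcgf1, at 8.0 to 11.4 normalized counts, averaged under the minimum of 10 and was not tested.

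The member with the smallest p in each list is given with its values. Tet3 had normalized counts of 426, 553 and 494 under the wild-type label and 406, 385 and 457 under the Morrbid-/- label (log2 difference -0.23, SE 0.11, 95% interval -0.46 to -0.01, adjusted p = 0.79 by limma). The groups overlapped, and the estimate had the same sign as with IFN-beta. Hdac7 had 160, 173 and 235 against 219, 212 and 234 (0.25, SE 0.13, adjusted p = 0.841). Mta1 had means of 154 ± 21.7 and 179 ± 18.6 (SD, n = 3; log2 difference 0.22, SE 0.13, adjusted p = 0.883). Smarca2 had 619, 768 and 641 against 536, 602 and 635 (-0.19, SE 0.10, adjusted p = 0.868). None of these was separate between genotypes. Kdm5b had 366, 335 and 375 against 324, 269.8 and 370.4 (-0.17, SE 0.11, adjusted p = 0.913). Ezh2 had 105, 76.0 and 84.8 against 75.0, 74.6 and 76.7 (-0.22, SE 0.16, adjusted p = 0.924). Kmt2c was at -0.11 (SE 0.10, adjusted p = 0.943) and Crebbp at -0.09 (SE 0.10, adjusted p = 0.953). Apart from Hdac7 and Kdm6b, standard errors of the members were larger than with IFN-beta, where there were more libraries and more reads per library.

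Genes that led with IFN-beta are set beside their values without it. Chd4 had 1327, 1304 and 1348 in wild type, against 1363, 1253 and 1402 in libraries labelled Morrbid-/- without IFN-beta (log2 difference 0.01, 95% interval -0.18 to 0.20, adjusted p = 0.988 by limma). Kdm2b had 354, 335 and 399 against 381, 402 and 401 (0.13, 95% interval -0.09 to 0.34, adjusted p = 0.939). Each interval lay below its counterpart with IFN-beta. Across the 18 members that rose with IFN-beta, the differences without it ran from -0.17 to 0.13, with a median of 0.01 and 10 above 0.

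The difference between these effects was itself tested in 1 model over all 14 libraries, as the genotype difference with IFN-beta minus that without. Of 50 members tested, Chd4 and Kdm2b passed, both higher, against 1.33% of all 9078 genes, 0.441% higher and 0.892% lower (limma). The change was 0.71 for Kdm2b (SE 0.12, 95% interval 0.47 to 0.96, adjusted p = 0.000611) and 0.61 for Chd4 (SE 0.10, 95% interval 0.40 to 0.82, adjusted p = 0.000761). For both genes, 4 of 4 libraries labelled Morrbid-/- were above all wild-type libraries with IFN-beta, and the groups overlapped without it. The other 17 members called with IFN-beta did not pass this test, so their effects were not shown to differ between stimulations. Arid1a (0.39, adjusted p = 0.0612) and Crebbp (0.39, adjusted p = 0.0898) were nearest to passing. Tet3 was at -0.24 (adjusted p = 0.461). Libraries with and without IFN-beta also differed in depth and were normalized in separate tables, so levels were not tested across them.

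**Figure D4:**
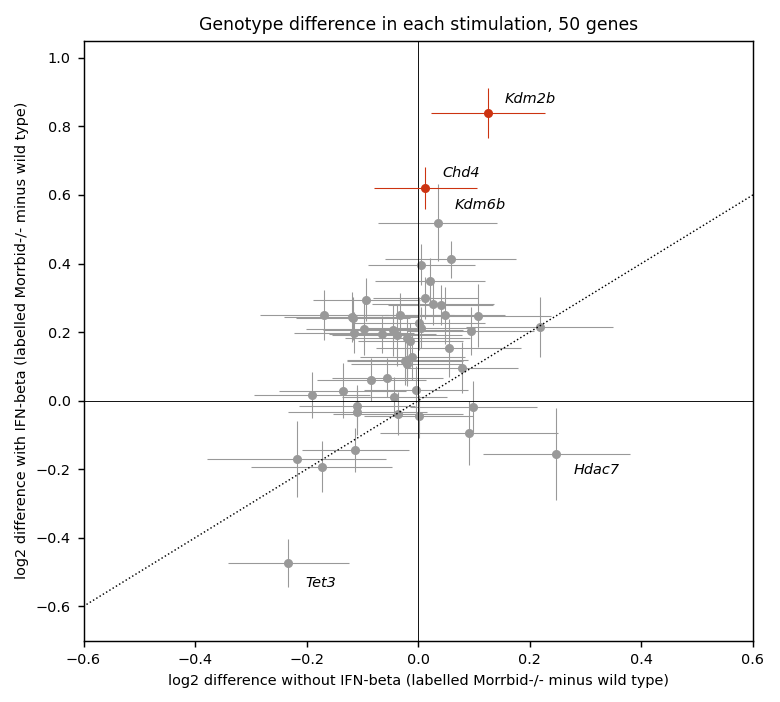
Genotype difference of 50 genes without IFN-beta (horizontal) and with IFN-beta (vertical), each as libraries labelled Morrbid-/- minus wild type on the log2 scale, with standard errors; the dotted line marks equal differences and red marks genes whose 2 differences passed the test of their difference. Kdm2b (0.13 and 0.84) and Chd4 (0.01 and 0.62) are red, and Tet3 (-0.23 and -0.47) is negative on both axes.

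Levels of the members spanned a wide range. Per kilobase of exon, wild-type cells with IFN-beta had the highest normalized counts for Kmt2a (527 ± 28.1, SD, n = 4) and Chd2 (520.0 ± 31.8), which differed by less than their spread. Suz12 (411 ± 29.9) and Chd4 (384 ± 17.9) followed, and these also differed by less than their summed SDs. The lowest levels per kilobase were those of Pcgf1 (15.9), Chd9 (32.6), Hdac7 (43.2) and Kdm6b (48.4). Exon lengths of the members ran from 988 bases (Pcgf1) to 19830 bases (Kmt2d). Their median was 7261 bases, and 8488 bases among the 18 that rose, against 3394 bases over the 9364 tested genes with a length. With the trend of the log2 difference on exon length removed, 17 members rose and Tet3 fell, and their median difference was 0.17. The 18 members that rose also had a higher median wild-type count (1811) than the 32 not called (629). The part of exon length and count level in the calls was otherwise not tested.

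A list of 174 other chromatin genes was read against the members. With IFN-beta, 25 of 149 tested rose (16.8%), 2 fell (1.34%) and 122 did not pass, with a median log2 difference of 0.09. The shares over all 9964 genes were 5.25% higher and 4.84% lower, and the counts by list below have the same background. Without IFN-beta, limma, edgeR and DESeq2 called 0 of 148, against 0.635% of all 9290 genes by limma. At an unadjusted p under 0.05 were 4 of the 148 and 567 of the 9290. Acetyltransferase and acetyl-lysine reader genes had 7 higher of 21. Kat2b, which encodes the acetyltransferase PCAF, fell in the same list (1172 ± 74.4 against 881 ± 20.0 normalized counts, SD, n = 4, log2 difference -0.41, SE 0.06, adjusted p = 0.00013 by limma). Polycomb genes beyond the members had 5 higher of 25, including Phf1, a PRC2 accessory subunit (76.0 ± 8.54 against 129.9 ± 16.3, log2 difference 0.76, SE 0.13), and Aebp2, another (0.34).

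Remodellers of the ISWI, INO80 and SRCAP families had 4 higher of 15, including Srcap, the ATPase that loads H2A.Z (3352 ± 271 against 4303 ± 329, log2 difference 0.36, SE 0.06), and Bptf, the NURF scaffold (0.25). H3K4 methyltransferase genes had 3 higher of 12, including Ncoa6, a subunit of the KMT2C and KMT2D complexes (0.41), and Setd1a (0.25). Corepressor and deacetylase genes had 3 higher of 18, including the scaffold gene Sin3a (0.24). BAF subunits beyond the members had 2 higher of 17, Smarcc2 (0.38) and Smarcd1 (0.35). Cdk2ap1, a NuRD accessory gene at 17.3 and 32.3 normalized counts, was the 1 of 5 in its list that rose (0.86). Among 14 other demethylase genes Uty fell (-0.29). None of 13 other histone methyltransferase genes or 9 other DNA methylation genes passed by limma, with 1 and 2 of them at an unadjusted p under 0.05. That level was reached by 2434 of all 9964 genes. Setd1a, Smarcd1 and Uty no longer passed with the 16S covariate or without replicate 2 labelled Morrbid-/-, under which 14 and 12 of these genes were higher. Bptf was also lost without that library, and Cdk2ap1 with the covariate, under DESeq2 and without any 1 of 4 libraries (replicates 1 and 3 of each genotype). In the test between stimulations 3 of 147 passed, all higher, against 1.33% of all 9078 genes, 0.441% higher and 0.892% lower (limma). Among them were Phf1 (0.92, adjusted p = 0.0131) and Ing2, a PHD-finger reader (1.07, adjusted p = 0.0205).

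Markers of naive T cells moved with the members in the table with IFN-beta. Of 6 such genes Lef1, Tcf7 and Ccr7 passed: Lef1 ran from 1733 to 2115 in wild type and from 2430 to 3294 in the libraries labelled Morrbid-/-. Tcf7 ran from 2525 to 2904 and from 3370 to 3930, and Ccr7 from 517 to 621 and from 690 to 874. The summed level of the 6 markers nevertheless overlapped, at 28117 to 29139 and 27405 to 30657. None of 6 CD8 T cell markers or 5 early activation markers passed by limma. The part of these markers in the members' differences was not tested.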

How the data were processed

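RNA from 14 libraries was made with a stranded total RNA kit from 100 ng RNA and sequenced as 75-base pairs, per the labels' protocols. Per the submitters' processing notes, Trimmomatic, STAR 2.5, featureCounts and DESeq2 were used with builds GRCm38 and mm10; the sources used here do not state annotation release, filters or strand setting. The authors deposited normalized counts (signal: gene counts divided by a size factor per library) in 1 table per stimulation, normalized separately. Whole reads were recovered from them (100% of values within 0.01 of a whole number).

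Genotypes were compared within each table, without a replicate block, by limma (version 3.58.1, R 4.3.3). Values were log2(normalized count + 1), the variance followed a trend on the mean, and tests covered genes with a mean of at least 10, with Benjamini-Hochberg adjustment over all tested genes at 0.05. A single model over all libraries tested the difference between stimulations. The pseudocount understates fold changes of low genes. Members and gene lists were chosen with earlier results of these data known. Members were named with values per library if they passed in any comparison or, in a list of a table with no passing member, had the smallest p; at most 2 passing genes were named in each other list. Alternatives comprised other pseudocounts (0.5 and 5), filters, scalings, trends, a replicate block, a length trend, the mitochondrial 16S share as covariate, edgeR 4.0.16 and DESeq2 1.42.0 on recovered reads, and leaving out each library. The test was also run on simulated counts, with independent libraries and the same dispersion for every gene, and the outcome is not reported here. Such counts do not check the test against structure shared between real libraries. Whether the replicate numbers pair the samples is not known. Read sharing was the share of 75-base stretches of a gene's annotated transcripts also present in another gene's. Some genes of the other chromatin lists are counted but not reported by name here.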

Additional observations from a re-analysis of the deposited data

Results flagged for a closer look

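Chance alone marks about 1 in 20 groups of this size as holding a stray library, and 102 groups of 4 libraries with IFN-beta were examined, of which 5 held one. Replicate 1 labelled Morrbid-/- was the lowest for Chd9 (380.3 normalized counts, the others 405 to 409) and for Dnmt1 (438.0, the others 479 to 482). It was the highest for Hdac2 (587, the others 503 to 505). Wild-type replicate 1 was the lowest for Tet3 (739, the others 852 to 862) and for Ncor1 (3384, the others 3635 to 3653). Chd9, Dnmt1 and Hdac2 were not called between genotypes.

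Chd4 and Kdm2b are listed because their genotype difference was larger with IFN-beta than without, by 0.61 and 0.71 on the log2 scale in the model over all libraries (limma, adjusted p = 0.000761 and 0.000611).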

How the results depend on the processing

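With IFN-beta, 5 of the 19 called members passed under all 22 alternatives, Chd4 (0.59 to 0.66), Kdm2b (0.80 to 0.90), Kmt2a (0.37 to 0.49), Arid1a (0.36 to 0.44) and Tet3 (-0.54 to -0.43). Without the mean-variance trend, 4 members rose, and Crebbp, Smarca4, Chd3, Kdm6b, Setd2 and Kmt2d were lost under that setting alone. The other 8 (Chd1, Chd2, Chd6, Gatad2b, Kdm3b, Kdm5b, Ncor1 and Ep300) were also lost with the 16S share as covariate, which left 10 members higher and 2 lower. Leaving out 1 library gave 10 to 18 higher and 1 to 2 lower, with 11 higher without wild-type replicate 1 and 10 without replicate 2 labelled Morrbid-/-. Hdac2 was the second lower gene without replicate 1 labelled Morrbid-/-. Without IFN-beta, 0 members were called under every alternative. There, the Chd4 difference turned below 0 without replicate 1 or replicate 3 labelled Morrbid-/- (leave-one-out range -0.0210 to 0.0598). Equal totals called 730 genes higher and 344 lower with IFN-beta, against 523 and 482.

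Whether replicate numbers pair the samples is not known. Without IFN-beta, correlations of same-numbered deviations were 0.20, -0.02 and 0.15, and different-numbered ones ran from -0.20 to 0.06. With it, same-numbered ones were 0.04, 0.00, 0.06 and 0.14, and different-numbered ones ran from -0.08 to 0.04. The replicate block gave 23 members higher and 1 lower with IFN-beta, and 8 members whose effect differed between stimulations. With the block and the length trend removed these were 22, 2 (Hdac2 added) and 9. The count of 2 differing members became 4 with the length trend removed, 5 with the 16S covariate, and 2 to 6 leaving out 1 library, with 6 without replicate 3 labelled Morrbid-/- and no IFN-beta. Chd4 and Kdm2b passed in that test under all 28 alternatives. Over all genes the block called 94 higher and 75 lower without IFN-beta, against 50 and 9, and 730 and 691 with it. Without the trend these were 13 and 4, and 171 and 134.

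Among other chromatin genes, the 25 higher became 6 without the trend, 14 with the 16S covariate and 12 to 22 leaving out 1 library, with 15 without wild-type replicate 1 and 12 without replicate 2 labelled Morrbid-/-. The 2 lower became 1 without the trend or with the covariate, and 1 to 3 leaving out 1 library. The 3 that differed between stimulations became 10 with the replicate block, with or without the length trend, 6 with the covariate and 1 to 4 leaving out 1 library, with 1 without replicate 1 labelled Morrbid-/- and no IFN-beta. In every case the cause was not tested. With 3 libraries a genotype without IFN-beta, standard errors near 0.10 limit what can be detected.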
